A study of Mus musculus with 9 samples.

Results

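Wild-type mouse skeletal muscle was profiled on 3 arrays, muscle 1, muscle 2 and muscle 3, which were all the muscle samples among the 9 samples of the study. The samples were chosen by that label alone. The other 6 samples were alveolar rhabdomyosarcomas, and they were not used here. The muscle samples were labelled as controls, and total RNA was isolated with Trizol and RNAeasy, labelled with biotin and hybridised to Affymetrix arrays. Strain, age, sex, the muscle that was sampled and whether the samples came from separate animals are not given in the labels used here, so the spread between arrays may be technical. Each probe set had 1 value per array, a MAS5 signal, which is a brightness on a linear scale. After each array was multiplied to the same trimmed mean, 12393 genes had 1 probe set each. With 1 group there was nothing to test, and values are given per array, or as mean ± SD (n = 3).

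Skeletal muscle is made mostly of long multinucleated fibres filled with sarcomeres, the repeating units in which myosin pulls on actin. Fast fibres and slow fibres carry different isoforms of myosin, troponin and the calcium pump, and they differ in how much they rely on glycolysis or on mitochondrial respiration. Between the fibres lie vessels, nerve, connective tissue, fat, immune cells and satellite cells, whose RNA is in the same extract. In such bulk RNA, fewer cells of a type and less RNA per cell cannot be told apart. Signals of different probe sets also depend on how well each set of probes binds, so an order of genes by signal is an order of brightness and not of transcript number, whereas 1 probe set can be compared across arrays.

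The brightest genes were those of the contractile apparatus and of energy supply. Aldoa, the muscle form of the glycolytic enzyme aldolase, was the brightest, with 22459, 27456 and 39609 on muscle 1, 2 and 3 (mean 29841 ± 8820). Ckm, muscle creatine kinase, which regenerates ATP from phosphocreatine, followed with 21998, 26842 and 37157. Acta1, the actin of adult skeletal muscle, gave 22402, 25812 and 37402. The means of the 3 genes differed by less than the SD between arrays, and all were dimmest on muscle 1 and brightest on muscle 3. Uqcrb, a subunit of respiratory complex III, came next with 22928, 27944 and 33028.

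The bases just before the starts of Acta1 and Ckm are shown because these are classic muscle genes among the brightest, and those of Tnnc2 and Tnnc1 because this fast and slow pair of troponin genes, described further on, differed most in its ratio between arrays. Each run is the 250 bases before the RefSeq start site in GRCm38.p6, read 5′ to 3′ on the gene's strand. Acta1 lies on the minus strand at chr8:123894776-123895025, Ckm on the plus strand at chr7:19410844-19411093, Tnnc2 on the minus strand at chr2:164779735-164779984 and Tnnc1 on the plus strand at chr14:31208062-31208311. Capitals mark the matches to TATAAA, to CAGCTG, which is a form of the E-box bound by myogenic factors, and to the CArG box bound by serum response factor. Other forms of the E-box were not searched. Both strands were searched.
Acta1: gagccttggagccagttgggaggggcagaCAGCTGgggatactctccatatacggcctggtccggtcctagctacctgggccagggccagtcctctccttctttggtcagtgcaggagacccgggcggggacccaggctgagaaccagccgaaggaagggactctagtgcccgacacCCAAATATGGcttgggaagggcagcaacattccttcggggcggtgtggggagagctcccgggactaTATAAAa
Ckm: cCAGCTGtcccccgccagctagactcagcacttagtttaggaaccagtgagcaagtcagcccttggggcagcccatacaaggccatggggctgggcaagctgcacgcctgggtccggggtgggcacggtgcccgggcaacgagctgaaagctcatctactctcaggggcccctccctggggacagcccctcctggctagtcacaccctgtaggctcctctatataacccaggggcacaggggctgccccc
Tnnc2: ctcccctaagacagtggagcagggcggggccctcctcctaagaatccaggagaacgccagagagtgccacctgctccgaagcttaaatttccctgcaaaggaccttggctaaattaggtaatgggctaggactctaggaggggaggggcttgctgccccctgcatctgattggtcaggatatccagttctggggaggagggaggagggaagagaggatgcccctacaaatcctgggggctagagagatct
Tnnc1: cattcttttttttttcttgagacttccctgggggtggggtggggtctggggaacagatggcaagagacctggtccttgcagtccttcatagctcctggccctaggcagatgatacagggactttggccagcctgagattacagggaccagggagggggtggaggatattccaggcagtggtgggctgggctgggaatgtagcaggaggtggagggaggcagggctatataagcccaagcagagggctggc
Acta1 held 1 match to each of these motifs and Ckm held 1 CAGCTG. The windows of Tnnc2 and Tnnc1 held no match to these letters, nor to the MEF2 site, the motif searched beside them by name. Of the 100 brightest genes, 85 had such a window, and 18.8% of them held CAGCTG, 12.9% held TATAAA, 4.71% held a CArG box and 1.18% held a MEF2 site. Over all 9887 measured genes with a window these shares were 14.5%, 10.7%, 1.60% and 0.556%. A match is a description of the letters and not evidence of binding.

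The 30 brightest genes had means from 18351 to 29841, a range of 1.63-fold, while single genes among them differed by up to 1.76-fold between arrays. In 23 of the 30 the signal rose from muscle 1 to muscle 2 to muscle 3. This spread was thus largely shared, and it does not measure how firm the order of the genes is. Among the 30 were 10 fast-fibre genes, the sarcomere genes Acta1 and Ttn, and the calcium release channel gene Ryr1. Glycolysis gave Aldoa, Eno3, Ldha, Tpi1 and Pgk1. Mitochondrial genes among them were Uqcrb, the ATP synthase subunit Atp5a1, the fatty acid oxidation enzyme Hadh and the carriers Slc25a3 (phosphate) and Slc25a4 (ATP and ADP). Car3, a carbonic anhydrase abundant in muscle and in fat, gave 20135, 27189 and 31438. Actc1, the actin that predominates in heart, gave 18290, 23180 and 26854. Of the 12 measured sarcomere genes listed for heart and fetal muscle, it was the only 1 with a mean of 500 or more. The next brightest of that list, Myl4, had a mean of 338. The coding sequences of Acta1 and Actc1 are nearly identical, and whether their probe sets share signal was not tested. Tuba4a, Tpt1, Serbp1 and the ribosomal gene Rps2 completed the 30 with Ckm.

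**Figure D1:**
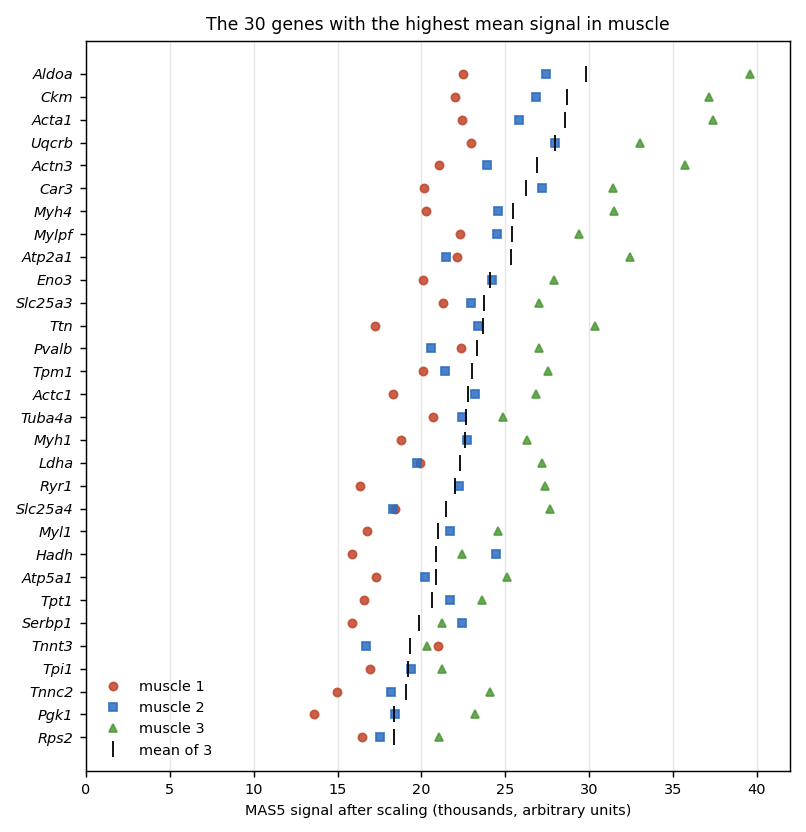
The 30 brightest genes by mean signal, with the scaled MAS5 signal of each array as a point. Signals lie between 13569 (Pgk1, muscle 1) and 39609 (Aldoa, muscle 3), and muscle 3 lies above muscle 1 for 29 of the 30.

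Muscle 3 was brighter than muscle 1 for 29 of these 30 genes, with a median ratio of 1.45, and muscle 2 was brighter than muscle 1 for 25, with a median ratio of 1.21. Over all genes the same median ratios were 0.972 and 0.938. Quantile normalization gives the arrays the same distribution by construction, and under it the ratio of muscle 3 to muscle 1 in the 30 became 1.01, and 16 of the 30 were higher on muscle 3.

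Signal was spread over many genes. The 10 brightest genes of each array held 2.24%, 2.51% and 3.17% of its signal, and the 30 brightest held 6.03%, 6.59% and 7.87%. The 100 brightest held 15.0%, 15.9% and 18.0% (mean 16.3% ± 1.51). To reach 50% of the signal took 859, 745 and 686 genes, and to reach 90% took 5305, 4812 and 4748. Muscle 1 was the most even of the arrays on each of these measures and muscle 3 the most concentrated. Bright probe sets can saturate, and absent transcripts keep some signal, so shares of signal are not shares of RNA. The 100 brightest genes of the separate arrays had 65 in common, and together they named 139 genes.

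**Figure D2:**
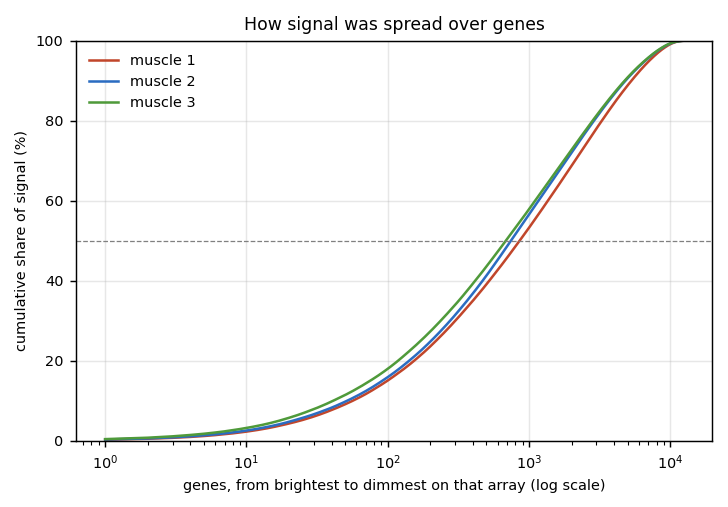
Cumulative share of signal (%) against the number of genes, from brightest to dimmest on each array (log scale), with a dashed line at 50%. The curve of muscle 1 lies lowest and reaches the dashed line at 859 genes, against 745 for muscle 2 and 686 for muscle 3.

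Of the 100 genes with the highest mean, 71 were on one of 39 lists of genes by function or cell type. Energy metabolism accounted for 41, and contraction and calcium handling for 22. The 178 measured energy genes, 1.44% of all genes, held 12.1%, 11.6% and 12.7% of the signal. The 63 measured contractile and calcium genes, 0.508% of genes, held 5.32%, 5.21% and 6.25%.

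Fast-fibre genes were bright on all 3 arrays. Of the 15 listed, 14 were measured, 13 of these were among the 100 brightest genes, and the list held 2.51%, 2.50% and 3.09% of the signal. Myh4, the fastest myosin heavy chain (type 2B), gave 20304, 24582 and 31498. Myh1, the 2X heavy chain, gave 18799, 22698 and 26284, and Myh2, the 2A heavy chain, gave 10494, 12777 and 17167. On the probe sets used here, all 3 heavy chains were lowest on muscle 1 and highest on muscle 3. Another probe set of Myh1 gave 11227, 12885 and 11748, and a dim one gave 33.9, 20.7 and 119. Pvalb, the calcium buffer parvalbumin, gave 22372, 20559 and 27032, and Atp2a1, the fast calcium pump, gave 22131, 21438 and 32455. Actn3, the actinin of fast fibres, gave 21032, 23910 and 35698. Mylpf, Myl1, Tpm1, Tnnt3, Tnnc2 and Casq1, which encode light chains, tropomyosin, troponins and calsequestrin, had means from 17550 to 25378. Tnni2, the fast inhibitory troponin, went the other way, with 19286 on muscle 1 against 10025 and 13430. Mylk2, the kinase of the myosin light chain, was the exception in brightness at 576, 698 and 631. No fast-fibre gene had its highest array at least 2-fold over its lowest (on the scale of signal + 16, used for every 2-fold count here), where 29.6% of all genes did, 17.4% of the genes with a mean of 500 or more did, and 10.4% of those with a mean of 5000 or more did.

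Slow-fibre genes were dimmer and differed more between arrays. All 11 measured of 13 listed were above the median gene on every array, and together they held 0.348%, 0.244% and 0.251% of the signal. Myh7, the slow myosin heavy chain, gave 5276, 3396 and 3192. In 4 of them muscle 1 stood at least 2-fold above both other arrays, as it did for 5.02% of all genes and for 2.75% of those with a mean of 500 or more. These were Tnnc1 (slow troponin C) at 3700, 1815 and 1340, Myoz2 (a sarcomeric calcineurin-binding protein) at 3482, 1513 and 1503, Myl2 (the slow regulatory light chain) at 2977, 1052 and 1062, and Tnnt1 (slow troponin T) at 3001, 905 and 1147. Tnni1, the slow troponin I, gave 1416, 710 and 720, and Csrp3, a Z-disc protein, gave 1583, 683 and 1011. Muscle 2 and muscle 3 were close to each other for Myl2, Myoz2 and Tnni1. Atp2a2, the slow calcium pump, which non-muscle cells also make, was lowest on muscle 1 at 5590 against 8809 and 9582. Another of its 4 probe sets was highest there, at 1590, 1286 and 1125, and the rest were lowest there. On the probe sets used here, Myl3, Tpm3 and Casq2 did not stand apart, with means of 3552, 2081 and 1174. Other probe sets of Tpm3 disagreed, with 977, 2116 and 2073 on 1 of them and 2145, 1109 and 1359 on another.

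On the log2 scale, muscle 1 minus the mean of muscle 2 and muscle 3 had a median of 0.92 over the slow list and -0.27 over the fast list, beside 0.07 over all genes and -0.28 over genes with a mean of 5000 or more. The fast list thus lay at the value of other very bright genes, and its difference came to 0.0050 under quantile normalization, where the slow list kept 0.92. Over all genes, muscle 1 was the highest array in 41.0% and the lowest in 33.3%. In genes with a mean of 500 or more these shares were 34.6% and 45.0%, and in those with a mean of 5000 or more they were 20.6% and 63.97%. Counts of genes highest or lowest on muscle 1 in the lists that follow are read against these shares.

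Ratios of paired isoforms, fast or muscle form over slow or general form, did not move together. Tnnc2 over Tnnc1 was 4.05, 10.03 and 18.0, and Tnnt3 over Tnnt1 was 6.99, 18.5 and 17.7. Tnni2 over Tnni1 was 13.6, 14.1 and 18.7, with both members higher on muscle 1. Myl1 over Myl3 was 4.49, 6.89 and 6.50, Actn3 over Actn2 was 2.95, 4.48 and 6.63, and Myoz1 over Myoz2 was 2.97, 6.65 and 8.19. These 6 ratios were lowest on muscle 1. Atp2a1 over Atp2a2 was highest on muscle 1, at 3.96, 2.43 and 3.39, and Casq1 over Casq2 was lowest on muscle 2, at 14.9, 11.2 and 20.9. Each ratio compares different probe sets, so it has no meaning as a ratio of transcripts and serves only to compare arrays.

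**Figure D3:**
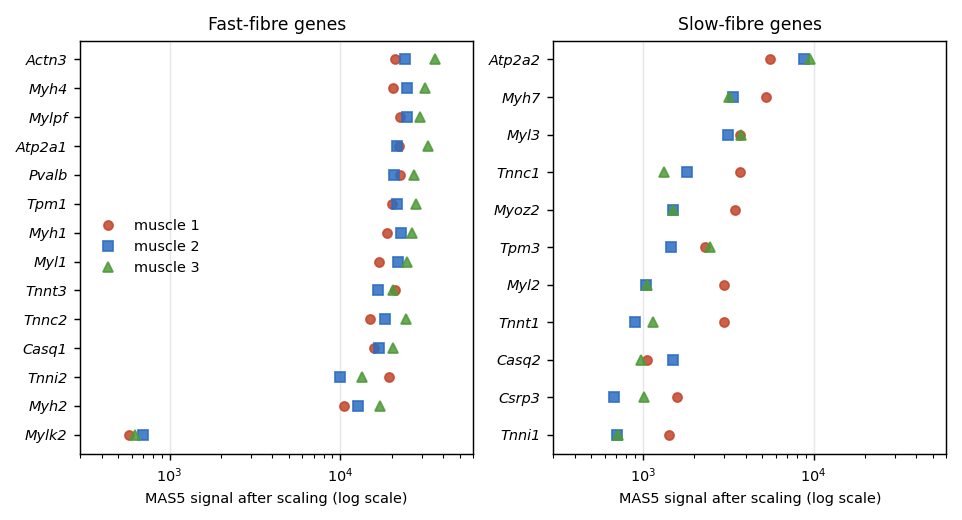
Scaled MAS5 signal (log scale) of the 14 fast-fibre genes (left) and the 11 slow-fibre genes (right), with 1 point per array. Muscle 1 lies apart to the right for Tnnc1, Myoz2, Myl2 and Tnnt1, and Tnni2 is the fast gene in which it lies farthest to the right.

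The control probe sets moved with the same split. For Gapdh, the signal at the 3′ end over that at the 5′ end was 1.68 on muscle 1, 57.2 on muscle 2 and 33.0 on muscle 3, from 5′ signals of 10045, 379 and 888. For Actb the ratio was 1.87, 4.06 and 4.35. The signal at the 3′ end over that in the middle was 0.991, 1.15 and 1.29 for Gapdh and 2.58, 4.67 and 5.11 for Actb. For Actb the 5′ signals of 6740, 4038 and 4005 lay above the middle ones of 4900, 3509 and 3405. A high ratio of 3′ to 5′ can mean that the 5′ part of the transcript is under-represented in the labelled material. Its part in the differences of muscle 1 described here was not tested.

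Sarcomere genes shared by both fibre types held 1.91%, 1.86% and 2.26% of the signal over 26 measured genes. Ttn, the giant spring protein titin, gave 17240, 23348 and 30354. Myot and Cmya5, proteins of the Z-disc region, had means of 17112 ± 2357 and 16851 ± 5801. Pdlim3, a Z-disc adaptor, was at least 2-fold lower on muscle 1, with 5675 against 13285 and 15015, as were 3.1% of all genes. Of the calcium handling genes, Ryr1 gave 16354, 22238 and 27394, and its partner triadin, Trdn, gave 7063, 12401 and 17034. Hrc, a calcium-binding protein of the same membrane system, gave 9955, 5002 and 5308. In the membrane list, Dag1 (dystroglycan) had a mean of 5627 ± 933, and Fxyd1, a regulator of the sodium pump, stood out on muscle 1 with 4332 against 1517 and 1782. Of the receptor genes of the nerve contact, Chrnb1 gave 895, 1090 and 1056 and Chrna1 gave 471, 794 and 699. Chrne was dimmer at 227, 153 and 197, and Chrng and Chrnd had means of 64.9 and 25.7. The 10 measured genes of the nerve contact had medians of 209, 196 and 156. Of these, 3 were above the median gene on all 3 arrays, beside 42.9% of all genes.

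Glycolysis genes held 1.54%, 1.64% and 1.99% of the signal over 19 genes, and 12 of the 19 were lowest on muscle 1. Their median log2 difference was -0.27, and -0.03 under quantile normalization. Of the 19, 9 had a mean of 5000 or more and 15 had 500 or more. Lowest on muscle 1 were 63.97% of all genes with a mean of 5000 or more and 45.0% of those with 500 or more. Pgam2, the muscle phosphoglycerate mutase, was among the steadiest at 14874, 16163 and 16946. Pfkm, the muscle phosphofructokinase, gave 14805, 13515 and 20080. Fbp2, the muscle fructose bisphosphatase, was lower on muscle 1 at 969 against 2428 and 2448. Of glycogen metabolism, Pygm, the muscle phosphorylase, gave 12113, 5300 and 7168, and Gyg, the glycogen primer, gave 1450, 3440 and 3270. The 2 enzymes thus differed in opposite directions. Ckmt2, the mitochondrial creatine kinase, gave 12773, 17262 and 20922, an order shared with Ckm.

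The oxidative phosphorylation group joined the lists of the respiratory complexes and of ATP synthase. Its share of signal therefore also depends on how many genes were listed, and it was not ranked against single lists. Its 76 measured genes, 0.613% of all genes, held 6.30%, 5.36% and 5.63% of the signal. Of these, 45 were highest on muscle 1, where 41.0% of all genes and 20.6% of those with a mean of 5000 or more were, and 49 of the 76 were that bright. The median log2 difference of the 76 for muscle 1 was 0.30, and between 0.16 and 0.45 under the other scalings. The brightest subunits did not share this. Uqcrb, Atp5a1 and Atp5g3 were lowest on muscle 1, and Cox5b gave 17436, 18105 and 19319. The other, dimmer probe set of Uqcrb was highest on muscle 1, at 3692, 3446 and 3258. Muscle 1 stood at least 2-fold above both others in 6 of the 76, beside 5.02% of all genes and 2.75% of those with a mean of 500 or more. It stood below both in Cox7c, a dim complex IV subunit named after its values were seen, at 81.1, 305 and 196. Cox6a2, the heart and muscle form of a complex IV subunit, gave 15180, 5043 and 7061. Cox7a1 and Cox8b, also muscle-type subunits of complex IV, gave 2980, 714 and 960, and 2297, 578 and 673. Atp5g1 and Atp5g2, which encode the same ring subunit of ATP synthase, gave 4198, 1677 and 1236, and 1486, 402 and 694. Uqcrh of complex III gave 2215, 923 and 821. In complex I, whose 33 measured genes all had a mean of 500 or more, 25 were highest on muscle 1, beside 34.6% of all genes that bright. None of the 33 stood 2-fold above both others on muscle 1, beside 2.75%.

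Genes of the citric acid cycle list were mostly lowest on muscle 1. Besides enzymes of the cycle, this list held subunits of pyruvate dehydrogenase, its kinases Pdk1, Pdk2 and Pdk4, and Got1, Got2 and the cytosolic Mdh1. Of the 22 genes, 13 had a mean of 5000 or more, and 17 were lowest on muscle 1. Of all genes with a mean of 5000 or more, 63.97% were lowest there, and of those with 500 or more, 45.0%. Under quantile normalization 16 of the 22 were lowest there, beside 4713 of all 12393 genes. The 22 genes had a median log2 difference of -0.37 (-0.52 to -0.23 under the other scalings). Over genes with a mean of 5000 or more it was -0.28. The list held 1.35%, 1.55% and 1.60% of the signal. Cs, citrate synthase, gave 13280, 15960 and 18400, and Mdh2, malate dehydrogenase, gave 11947, 15197 and 16003. Fatty acid genes were split. Fabp3, the fatty acid carrier of heart and slow muscle, gave 4570, 1031 and 1268, whereas Cd36, the fatty acid transporter, gave 1164, 3318 and 3139. Hadh gave 15853, 24421 and 22394. Mb, which encodes the oxygen store myoglobin, gave 12890, 8642 and 14834 and was lowest on muscle 2. The coactivator Ppargc1a gave 902, 1236 and 847.

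The ribosome list held 2.03%, 1.53% and 1.54% of the signal over 38 genes. Rpl38, Rpl27, Rps24, Rpl41 and Rps19 stood at least 2-fold above both others on muscle 1, 5 of the 38 beside 5.02% of all genes and 2.75% of those with a mean of 500 or more. Among them was Rpl38 at 7177, 2728 and 2553. Rps2, Rpl4 and Rps3 were highest on muscle 3 instead. Rps9 gave 453, 6442 and 2784 on its brightest probe set.

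Among genes of cells other than fibres, those of fibroblasts and matrix had the highest list median on every array. Gsn (gelsolin) gave 12746, 17841 and 23930, and the collagen genes Col3a1 and Col1a2 gave 11378, 13599 and 11819, and 8796, 12902 and 14842. The 25 measured fibroblast and matrix genes had a median of 1579, 1557 and 1094. In the adipocyte list of 21 genes the medians were 1099, 733 and 545. Adipoq, the hormone adiponectin, made by fat cells, gave 3247, 2249 and 1842, and Fabp4, their fatty acid carrier, gave 5380, 7508 and 5768. Car3 and Lpl, the brightest of the adipocyte list, are also made by muscle fibres. The adipocyte median was above the endothelial and pericyte medians on muscle 1 and muscle 2 and below both on muscle 3. Endothelial genes had medians of 544, 523 and 645, with Kdr, a receptor for VEGF, at 996, 895 and 1005. Pericyte and smooth muscle genes had medians of 758, 556 and 719, led by Rgs5 at 4579, 6597 and 7342 and by Acta2 at 6010, 5060 and 3112.

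Immune, skin and nerve genes were near or under the median gene, which was 271, 237 and 244. Macrophage genes had medians of 142, 157 and 164, although Csf1r, the receptor that macrophages need for survival, gave 1890, 1228 and 1408. Lymphocyte genes had medians of 139, 91.9 and 62.9, and skin genes 135, 74.7 and 118. Schwann cell genes had medians of 246, 181 and 235. Mbp, a myelin protein, gave 2856, 832 and 356. As a reference for absent transcripts, 32 genes of other organs had medians of 112, 71.7 and 56.2. Among these Cyp2e1 was the exception, at 2533, 2727 and 1351.

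**Figure D4:**
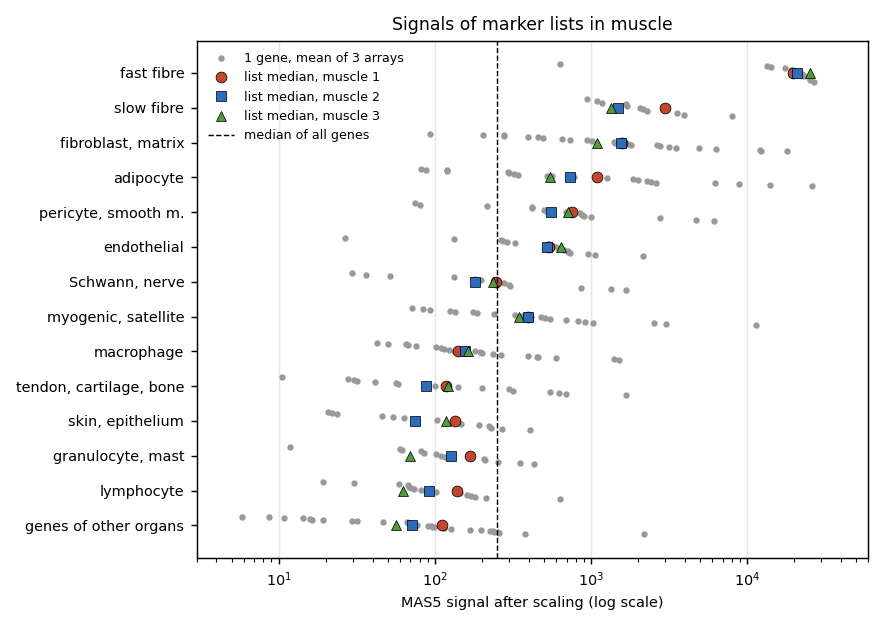
Scaled MAS5 signal (log scale) by marker list. Grey points are genes (mean of 3 arrays), large symbols are the list median on each array, and the dashed line is the median of all genes. The fibroblast, adipocyte, pericyte and endothelial medians lie to the right of the dashed line, and the macrophage, lymphocyte and skin medians to its left.

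Satellite cell and myogenic genes were led by Mef2c, a factor that fibres themselves make, at 9220, 12775 and 12419. Of the 20 measured, 11 were above the median gene on all 3 arrays, beside 42.9% of all genes. The list medians were 394, 399 and 347. Pax7 gave 272, 198 and 61.8, Pax3 gave 343, 102 and 114, and Myf5 gave 123, 136 and 118. Myf6, a myogenic factor of mature fibres, gave 1159, 882 and 1074. Sdc4, a proteoglycan of satellite cells and other cells, gave 658, 1420 and 663. Of genes that mark position along the body, Hoxa9 gave 1519, 1534 and 1764, Lbx1 gave 1045, 784 and 904, and Tbx1 gave 788, 435 and 607. The hindlimb factors Tbx4 (238, 183 and 222) and Pitx1 (104, 146 and 39.1) and the forelimb factor Tbx5 (126, 44.5 and 117) were under the median gene. Of the other Hox genes, Hoxd9, Hoxc6, Hoxc8, Hoxd8, Hoxc9 and Hoxa10 had means from 393 to 537, Hoxc4, Hoxa5, Hoxd10 and Hoxa11 had means from 59.6 to 196, and Hoxc5 was the dimmest at 14.5. The Y-linked gene Eif2s3y gave 899, 1734 and 1798, while Xist, made from the inactive X chromosome, gave 134, 223 and 164, and Uty and Kdm5d had means of 219 and 203.

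Genes that answer quickly to stimulation differed between arrays. Fos gave 1123, 3199 and 528, and Dusp1 gave 3400, 6484 and 2209, both highest on muscle 2. Hspa8, a constitutive chaperone, was steady at 8344, 9540 and 9075. Dbp, a clock output gene, gave 3104, 6236 and 5669, and Per1 gave 337, 844 and 261. Of the genes raised in atrophy or by glucocorticoids, Pdk4 was steady at 5237, 5061 and 4827, while Fbxo32 gave 613, 1212 and 1475 and Klf15 gave 385, 880 and 1220.

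Between arrays, log2 signals correlated across genes with Pearson's r of 0.923 (muscle 1 and 2), 0.925 (1 and 3) and 0.948 (2 and 3), where genes are not independent replicates. Signals were within 2-fold for 82.0%, 82.9% and 88.2% of genes. Muscle 2 and muscle 3 were within 2-fold for 73.9% of genes with a mean under 100 and for 98.3% of those with a mean between 2000 and 10000. For muscle 1 and muscle 2 these shares were 71.7% and 88.3%.

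**Figure D5:**
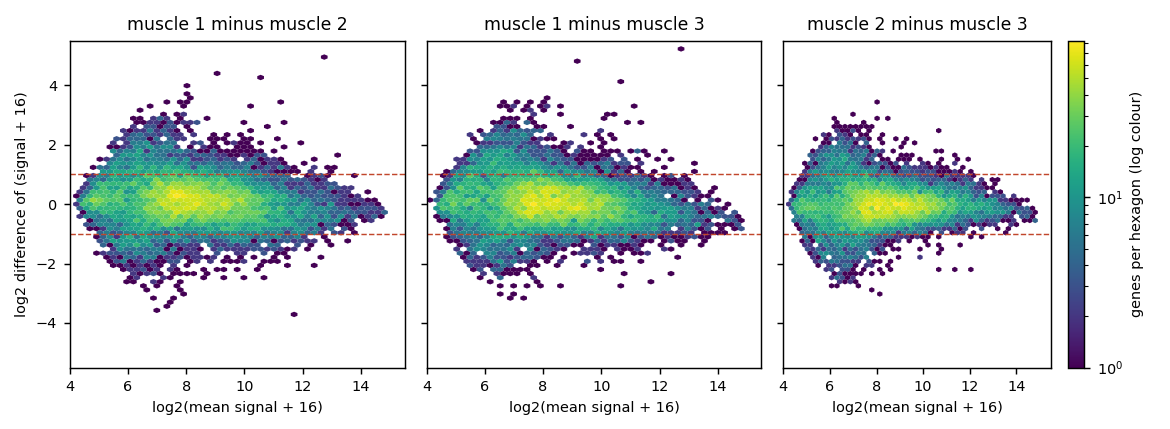
Log2 difference in scaled MAS5 signal between the arrays of a pair, against log2 mean signal, for the 3 pairs of arrays. Genes are grouped in hexagonal bins, and dashed lines mark a 2-fold difference. The cloud of muscle 2 and muscle 3, whose log2 signals had r of 0.948, is the narrowest. All pairs widen toward low signals.

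Among the 4074 genes with a mean of 500 or more, muscle 1 stood at least 2-fold above both others in 112 and below both in 106 (2.75% and 2.6%). This near balance depended on the scaling, since multiplying the arrays to the same median gave 77 above and 188 below. For muscle 2 these counts were 35 and 8 (0.859% and 0.196%), and for muscle 3 they were 12 and 18 (0.295% and 0.442%). The largest gap was in Malat1, a long noncoding RNA kept in the nucleus, at 20743, 647 and 523, and all 5 of its probe sets were highest on muscle 1. Pfpl, Commd5, Hdac11, Igbp1, Ezr, Gm12338 and Gpaa1 followed, with gaps to the nearest array from 21.5-fold to 5.89-fold. Below both others on muscle 1, after Rps9, were Rassf1, Agfg1, Copb1, Ets1, Bsdc1, Map3k7 and Rraga. Another probe set of Rps9 went the other way at 1864, 399 and 511.

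On the probe sets used here, muscle 2 was highest in Rian, an imprinted noncoding RNA (370, 1726 and 391), and in Klf4, a transcription factor (933, 3579 and 990). Tmed9, St6gal1, Camk2d, Cmtm6 and Tmem30a showed the same pattern. It was lowest in Me1, the cytosolic malic enzyme (4933, 1215 and 5636), in Kcna7, a potassium channel gene (1506, 496 and 1298), and in Phpt1, Mrps16, St3gal3, Cmas, Cdk4 and Sars. Muscle 3 was highest in BC023105, in Pttg1 (securin; 1454, 1194 and 5723), in Pfkfb3, which makes an activator of glycolysis (641, 1054 and 3449), and in Tent5c and Pnrc1. The interferon-induced genes Rsad2 (665, 485 and 1687) and Iigp1 (638, 438 and 1523) were among its highest too, as was Fmod, a collagen-binding proteoglycan (1170, 1017 and 2855). It was lowest in Prdx4, Stmn1, G0s2, Srrm2, Sh3bgrl, Limd2, Mbp and Gadd45g.

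Such differences often belonged to 1 probe set, as in Klf4, whose other probe set gave 362, 355 and 277. Of the 112 genes with muscle 1 above, 56 had several probe sets. In 11 of these another probe set passed 2-fold as well, and in 21 every other probe set was at least highest on muscle 1. Of the 35 genes with muscle 2 above, 25 had several probe sets. Another passed 2-fold in 0 of these, and in 12 every other one was at least highest on muscle 2. With muscle 3 above, 8 of 12 had several, 0 had another past 2-fold, and in 8 the others were highest on muscle 3. Below both others, another passed 2-fold in 9 of 67 genes for muscle 1, 2 of 4 for muscle 2 and 1 of 11 for muscle 3. Over 1058 genes with at least 2 probe sets at a mean of 500 or more, the brightest 2 were compared, and the log2 difference of muscle 1 from the others had r of 0.382 between probe sets of the same gene, with the same sign in 64.5%. Tnnc1, Myoz2, Myl2, Tnnt1, Cox6a2 and Fabp3 had 1 probe set each, so this check could not be made for them.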

How the data were processed

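The deposited values were MAS5 signal intensities for 22690 probe sets, on a linear scale, per the file header and the submitters' processing notes, which name MAS5 without a version. Deposited 2% trimmed means were 294, 500 and 141, so each muscle array was multiplied to 500 (factors 1.70, 1.00 and 3.55). Of the probe sets, 64 controls were left out of gene values, 20380 had 1 symbol in the platform annotation, 691 several and 1555 none. A gene took its probe set with the highest mean log2 signal over the 3 arrays. The members and lists were chosen with earlier results of these data known, and 8 older symbols in the lists were updated. The rule for named genes took the 30 brightest, all fast, slow, marker, sex-linked and body-position genes, isoform pairs, the brightest of each other list, and up to 8 per array and direction that stood apart. Not every gene it took is described. Calculations used Python with numpy, pandas and scipy and were tested on simulated data. Array number limits precision. Alternatives were other scalings, offsets, probe set rules, filters, and leaving out each array.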

Additional observations from a re-analysis of the deposited data

How the results depend on the processing

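No paired analysis was possible because there was 1 group and no comparison between groups. The share held by the 100 brightest genes (16.3%) became 19.6% when probe sets were averaged, 22.7% with the dimmest and 11.7% with every probe set counted. The fast-fibre share (2.70%) became 3.40%, 3.94% and 1.77% under the same settings. With every probe set counted, 1204 features in place of 763 genes held 50% of the signal, and the slow-fibre share was 0.184%. Mean Pearson's r (0.932) became 0.916 with an offset of 1, 0.906 with the dimmest probe set and 0.908 over genes above the median.

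The share of genes at least 2-fold apart (29.6%) became 85.9% without rescaling, 15.98% with an offset of 64, 17.8% above the median gene, 10.8% at 3-fold and 11.7% to 18.0% with 1 array left out, the lowest without muscle 1. Without rescaling, the counts above and below were 22 and 5 for muscle 1, 1197 and 0 for muscle 2, and 0 and 1154 for muscle 3. At 3-fold they were 31 and 13, 4 and 1, and 3 and 1. With the mean of the probe sets, muscle 1 gave 74 and 50, muscle 2 above gave 12, and muscle 3 gave 5 and 9. With the dimmest probe set, muscle 1 below gave 54, muscle 2 above 12, and muscle 3 gave 5 and 8. With every probe set counted, muscle 1 gave 249 and 167 and muscle 2 gave 53 and 27. Equal medians gave 188 for muscle 1 below and 5 for muscle 2 below, and an offset of 64 gave 3 for muscle 2 below and 11 for muscle 3 below.

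With the dimmest probe set, the log2 difference of the array that stood apart turned sign in Ezr (-0.15), Gpaa1 (-1.08), Map3k7 (0.67), St6gal1 (-0.26), Tmem30a (-0.23) and Mbp (0.59). Without rescaling it turned in Cmas (0.20), Cdk4 (0.081), Sars (0.022) and Fmod (-0.056), and without muscle 2 in Prdx4 (0.079). The cause was not tested beyond the construction of each setting. The median log2 difference of muscle 1 stayed between 0.72 and 1.05 over the slow list, and over the fast list it came to 0.0050 under quantile normalization. Equal medians moved that of all genes from 0.07 to -0.06. The scalings of the oxidative phosphorylation, complex I, citric acid cycle, glycolysis and ribosome lists were chosen after seeing the data, and these 5 kept their sign.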

Other observations

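Probe sets shared by several genes or without a symbol were left out of the gene values, and they held 12.5%, 11.7% and 11.4% of the signal on muscle 1, 2 and 3. Of the 100 brightest probe sets, 15 had several symbols and 4 had none. Globin genes, which mark red blood cells, were measured mainly by such probe sets. A probe set annotated to 4 globin genes, gave 10102, 4387 and 8737. Others annotated to 2 globin genes gave 7876, 851 and 5579, and 5896, 837 and 3396. Muscle 2 was lowest on each of these 3. Alas2, the first enzyme of haem synthesis in red cells, was also lowest there, at 362, 225 and 821.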
